A study of Homo sapiens with 2 samples.

Results

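The miR-200 family and miR-205 are the microRNAs (miRNAs) best known from epithelial cells. Here they comprise 8 mature names out of 2588 mature miRNA names in the deposited files (prefix hsa-, left off below). They were listed by name and not by a cut on any value, but with earlier results of these data known. The 8 are miR-200b-3p, miR-200c-3p, miR-429, miR-200a-3p, miR-141-3p, the 5p arms miR-200a-5p and miR-200b-5p, and miR-205-5p. Counts came from 2 miRNA-seq libraries of MDA231, an established triple-negative breast cancer line that is also written MDA-MB-231. Lysate of parental MDA231 cells was passed over amylose resin that held MBP-MCP, a maltose-binding protein joined to the MS2 coat protein. In the bait library the resin also held lncRNA MACC1-AS1-MS2, the long non-coding RNA MACC1-AS1 tagged with MS2 and made with T7 RNA polymerase, whereas the RNA substrate of the no-bait library is given as none. The study asked which miRNAs associate with MACC1-AS1. The control held no unrelated RNA and no MS2 tag alone, so binding to MACC1-AS1 and binding to the tag, or to any RNA on the resin, cannot be told apart. Each group was 1 library, so nothing below has a replicate check, no p-value was computed, and all intervals are 95% intervals that cover counting error only.

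A mature miRNA guides Argonaute to RNAs that pair with its seed, bases 2 to 8. Members of the miR-200 family hold cells in an epithelial state by repressing ZEB1 and ZEB2, transcription factors that silence E-cadherin, and the ZEB factors in turn repress the miR-200 genes. miR-205 also targets ZEB1 and ZEB2 and is typical of basal epithelium. MDA231 is widely used as a mesenchymal-like line in which this family is low.

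The 8 mature sequences are shown because their seeds divide the set into 4 groups and because near-identical pairs limit what counts can separate. They are RefSeq sequences (GRCh38.p14), 5′ to 3′, with the seed in capitals, and all 8 members were matched.
hsa-miR-200b-3p: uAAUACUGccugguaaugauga
hsa-miR-200c-3p: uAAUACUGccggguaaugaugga
hsa-miR-429: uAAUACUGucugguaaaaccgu
hsa-miR-200a-3p: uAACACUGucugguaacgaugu
hsa-miR-141-3p: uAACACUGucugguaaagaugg
hsa-miR-200a-5p: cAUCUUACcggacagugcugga
hsa-miR-200b-5p: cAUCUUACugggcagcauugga
hsa-miR-205-5p: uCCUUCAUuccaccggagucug

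The first 3 share one seed, miR-200a-3p and miR-141-3p share another, the 5p arms share the third, and miR-205-5p stands alone. No other name in the files that was matched to RefSeq carries any of these 4 seeds. The seeds of miR-200b-3p and miR-200a-3p differ at a single base, U4C, counted from 1 at the 5′ end with the first-named miRNA's base first. miR-200b-3p and miR-200c-3p differ by U11G and A22G over 22 compared positions, and miR-200c-3p is longer by 1 base. miR-200a-3p and miR-141-3p differ by C17A and U22G. No source used here says how reads that match several miRNAs were treated, so the division of counts within these pairs is uncertain. The members are 22 to 23 nt long, so RPM values (a library's reads scaled to 1000000 miRNA counts) need little length correction between them, although ligation and amplification preferences differ between sequences.

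The miRNA genes lie at 3 places (GENCODE version 29, GRCh38). MIR200B (1167104 to 1167198), MIR200A (1167863 to 1167952) and MIR429 (1169005 to 1169087) lie on the plus strand of chromosome 1 within 1984 bases, and no other gene is annotated over them on that strand. MIR200C (6963699 to 6963766) and MIR141 (6964097 to 6964191) lie 330 bases apart on the plus strand of chromosome 12, in the intron of the host transcript MIR200CHG. MIR205 (209432133 to 209432242) lies on the plus strand of chromosome 1 within MIR205HG, where the exons of 7 of 10 annotated transcripts overlap the hairpin. These positions are those of the annotation, as no source used here names the build behind the counts.

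The bait library held 1047269 miRNA counts and the no-bait library 269716, a 3.88-fold difference in depth. Marker miRNAs of the line and of other cell types are listed as a description. They were named after their values were seen, so they are no check of the label. All 6 markers of basal breast lines were seen in both libraries (53.2% of bait and 60.0% of no-bait counts), led by miR-100-5p. Of 5 markers of luminal or other epithelial cells, 4 were seen with bait and 2 without, at 1520 and 319 RPM in all, almost entirely miR-192-5p, and miR-375 had 0 counts in both. Of 7 blood cell markers, 4 were seen with bait and 3 without (432 and 864 RPM), mainly miR-486-5p, while miR-223-3p, miR-144-3p and miR-150-5p had 0 counts in both. The part of these other cell type markers in the values below was not tested. In lysate of many cells, fewer cells with a miRNA and less of it per cell cannot be told apart.

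All 8 members together took 198 counts with bait and 33 without. That is 0.0189% of the bait library (exact Clopper-Pearson interval 0.0164% to 0.0217%) and 0.0122% of the no-bait library (0.00842% to 0.0172%). miR-100-5p alone had 1568 times as many counts as the 8 members together with bait and 3701 times as many without. The family was thus detectable but rare on both resins.

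miR-200b-3p, a guide strand of the chromosome 1 cluster, supplied most of the signal. It had 144 counts with bait, or 137.5 RPM (exact Poisson interval 116 to 162 RPM), and 28 counts without, or 104 RPM (69.0 to 150 RPM). It ranked 113th of 651 names seen with bait and 117th of 476 seen without, so its place was similar in both. miR-200c-3p, the chromosome 12 member with the same seed, had 20 counts with bait (19.1 RPM, 11.7 to 29.5 RPM) and 1 count without (3.71 RPM, 0.0939 to 20.7 RPM). miR-429, the other member with this seed, had 8 counts with bait (7.64 RPM, 3.30 to 15.1 RPM) and 0 without. A count of 0 allows up to 3 counts, a level of 2.86 RPM in the bait library and 11.1 RPM in the no-bait library. The bait level of miR-429 corresponds to 2.06 counts at the no-bait depth. It lay below the 11.1 RPM that a 0 allows there, so the 0 does not show a lower level.

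Of the pair that shares the seed AACACUG, miR-200a-3p had 18 counts with bait (17.2 RPM, 10.2 to 27.2 RPM) and 1 count without (3.71 RPM). miR-141-3p had 0 counts in both libraries. The difference between these close relatives was larger than counting error with bait: 18 of 18 counts went to miR-200a-3p, with a lower interval bound of 81.5%. miR-141-3p shares its host transcript with miR-200c-3p, which took 20 of the 20 counts of these neighbours with bait (lower bound 83.2%). So in the bait counts as deposited, the chromosome 12 cluster was seen through miR-200c-3p and not through the guide strand of MIR141. These intervals leave out the unknown treatment of reads that match several near-identical members, which could change both splits.

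The 5p arms, the less abundant strands of their hairpins in most tissues, had few counts. miR-200a-5p had 6 counts with bait (5.73 RPM) and 2 without (7.42 RPM). miR-200b-5p had 2 counts with bait (1.91 RPM) and 1 without (3.71 RPM). The basal epithelial miR-205-5p had 0 counts in both libraries, under the same limits. Of the 3 hairpin arms that are not among the 8 names, miR-200c-5p and miR-205-3p also had 0 counts in both libraries, and miR-141-5p had 1 count with bait and 0 without.

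**Figure D1:**
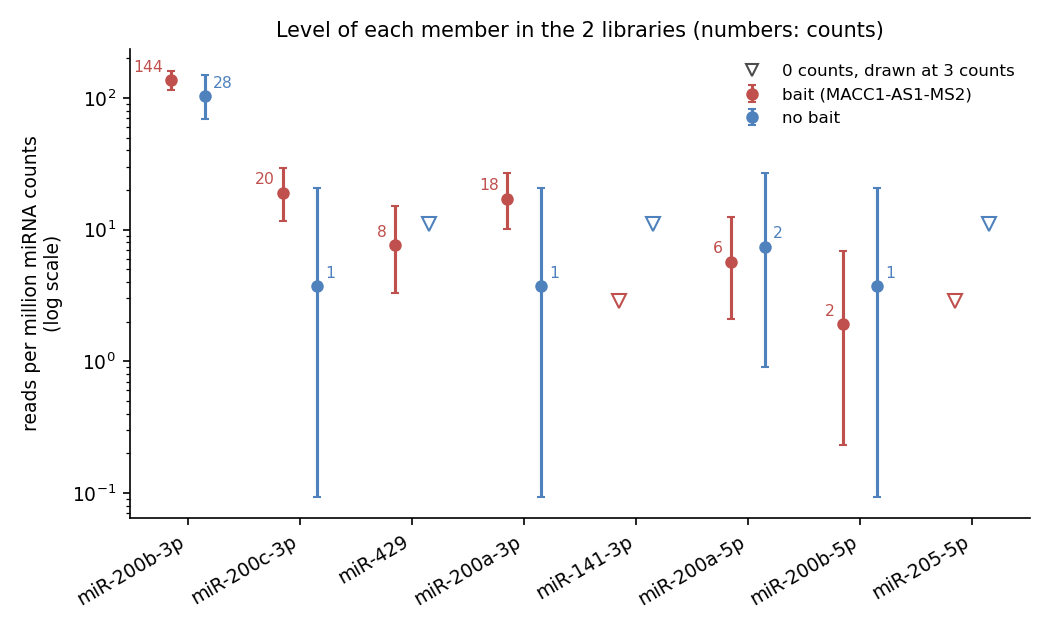
Level of each member in the bait (red) and no-bait (blue) library, in RPM on a log axis, with exact Poisson 95% intervals; numbers beside the points are counts, and open triangles mark 0 counts, drawn at the level of 3 counts. miR-200b-3p lies above all other members in both libraries (144 and 28 counts), and miR-141-3p and miR-205-5p have 0 counts in both.

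In the bait library the order of levels was miR-200b-3p, miR-200c-3p, miR-200a-3p, miR-429, miR-200a-5p and miR-200b-5p, with miR-141-3p and miR-205-5p at 0. miR-200b-3p had 7.2 times the counts of miR-200c-3p (exact interval 4.49 to 12.1). The next neighbours could not be separated. miR-200c-3p had 1.11 times the counts of miR-200a-3p (0.558 to 2.23), miR-200a-3p had 2.25 times those of miR-429 (0.931 to 5.98), and miR-429 had 1.33 times those of miR-200a-5p (0.406 to 4.66). Over a wider step, miR-200c-3p had 2.50 times the counts of miR-429 (1.05 to 6.56). Without bait only miR-200b-3p stood clear, with 28.0 times the count of miR-200a-3p or of miR-200c-3p (4.63 to 1145), and the other members had 0 to 2 counts each.

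The chromosome 1 cluster shows how uneven mature products of neighbouring hairpins were. With bait miR-200b-3p had 8 times the counts of miR-200a-3p (4.89 to 13.9) and 18.0 times those of miR-429 (8.89 to 42.5). Arm use also differed between its hairpins. The MIR200B hairpin is shown with its mature arms in capitals, the 5p arm first (RefSeq, GRCh38.p14, plus strand, chr1:1167104-1167198).
MIR200B: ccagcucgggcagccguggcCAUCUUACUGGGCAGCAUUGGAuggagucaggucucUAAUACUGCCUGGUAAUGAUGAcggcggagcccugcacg

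From this hairpin the 3p arm took 144 of 146 counts with bait, 98.6% (95.1% to 99.8%), and 28 of 29 without, 96.6% (82.2% to 99.9%). From MIR200A the 3p arm took 18 of 24 counts with bait, 75% (53.3% to 90.2%), and 1 of 3 without (33.3%, 0.840% to 90.6%). The intervals of MIR200B and MIR200A did not overlap with bait, so the share of the 3p arm was lower for MIR200A there. Without bait they overlapped widely.

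As a share of the set, miR-200b-3p took 72.7% of member counts with bait (66.0% to 78.8%) and 84.8% without (68.1% to 94.9%). miR-200c-3p took 10.1% (6.28% to 15.2%) and 3.03% (0.0767% to 15.8%). miR-200a-3p took 9.09% (5.48% to 14.0%) and 3.03%. These shares do not depend on how the libraries are scaled to each other. Every member's intervals in the libraries overlapped, so a change in make-up was not detectable at this depth.

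**Figure D2:**
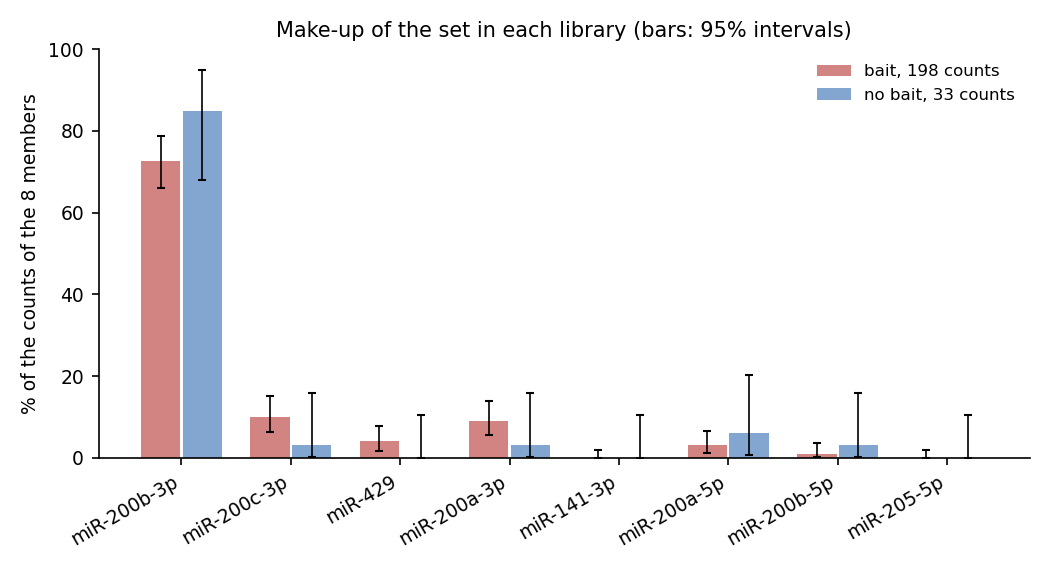
Share of the summed member counts held by each member, in percent, with bait (198 counts, red) and without (33 counts, blue); error bars are exact Clopper-Pearson 95% intervals. miR-200b-3p holds 72.7% with bait and 84.8% without, and the intervals of each member overlap between the libraries.

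Enrichment was measured as the ratio of a miRNA's share of the bait library to its share of the no-bait library, with an exact conditional binomial interval. Calls needed an interval that excluded 1, and a ratio of 2 or more (higher) or of 0.5 or less (lower). No member was called in either direction. With at least 30 counts over both libraries, 1 of 8 members could be tested (miR-200b-3p), and 39.4% of 231 tested miRNAs were called higher and 26.8% lower (91 and 62 miRNAs, and 114 and 44 with DESeq2 size factors). At a minimum of 10 counts 0 of 3 members were called, against 29.2% higher and 24.9% lower of 325. With no count filter 0 of 6 were called, against 13.3% higher and 14.0% lower of 715. Apart from miR-200b-3p, the members had too few counts to be called higher. With 0 or 1 no-bait counts the rule needed at least 24 bait counts. The absence of calls among them was therefore set by depth and is no result about these members.

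miR-200b-3p had a ratio of 1.32 (0.879 to 2.06). Its bait share corresponds to 37.1 counts at the no-bait depth, where 28 were found. With total counts as the scale and counting error alone, the interval excludes a bait share more than 2.06 times the no-bait share. With DESeq2 size factors the ratio was 1.77 (1.18 to 2.76), so that bound depends on the scaling. Of the 231 tested miRNAs 122 had a higher ratio, and their median was 1.46, so miR-200b-3p lay near the middle.

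miR-200c-3p had a ratio of 5.15, but 1 no-bait count gave an interval of 0.824 to 213. miR-200a-3p had a ratio of 4.64 (0.732 to 193), also from 1 no-bait count. With DESeq2 size factors in place of total counts, miR-200c-3p passed the higher rule at 6.90 (1.10 to 286). miR-200a-5p had a ratio of 0.773 (0.138 to 7.83), and 1.04 with DESeq2 size factors. For miR-429 no ratio is given because its bait level was under the level of 3 no-bait counts that a 0 allows. Its interval begins at 0.440. miR-200b-5p, miR-141-3p and miR-205-5p had at most 3 counts in each library and have no ratio. With total counts as the scale and 0 or 1 no-bait counts, the rule needed at least 24 bait counts, which the other 7 members did not reach.

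Summing members gives a tighter value. All 8 together had a ratio of 1.55 (1.06 to 2.31), above 1 by more than counting error but below the 2-fold rule and close to the median of 1.46 over all tested miRNAs. DESeq2 size factors brought this sum to 2.07 (1.43 to 3.09), past the rule. They multiply every ratio by 1.34, the median included, so the place of the sum beside the median did not change. With them 114 of the 231 tested miRNAs were higher. Total counts without the 5 most abundant miRNAs brought the sum to 1.41 (0.974 to 2.11), with an interval that holds 1. The seed group of miR-200b-3p, miR-200c-3p and miR-429 had 172 and 29 counts and a ratio of 1.53 (1.03 to 2.35). The group of miR-200a-3p and miR-141-3p had 18 and 1 counts and a ratio of 4.64 (0.732 to 193). The 5p arms had 8 and 3 counts and a ratio of 0.687 (0.165 to 4.02).

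By locus, the chromosome 1 cluster summed to 178 bait and 32 no-bait counts (ratio 1.43, 0.979 to 2.16). The chromosome 12 cluster summed to 20 and 1 (ratio 5.15, 0.824 to 213). The intervals of the clusters overlap, so a difference between them was not detectable. The abundant miR-200b-3p decided the sum over the set. The other 7 members summed to 54 bait and 5 no-bait counts, and their ratio of 2.78 (1.12 to 8.91) passed the higher rule. So did 39.4% of the 231 tested miRNAs, and the interval of this sum holds their median of 1.46. That passing value rests on 5 no-bait counts and its lower bound is close to 1.

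**Figure D3:**
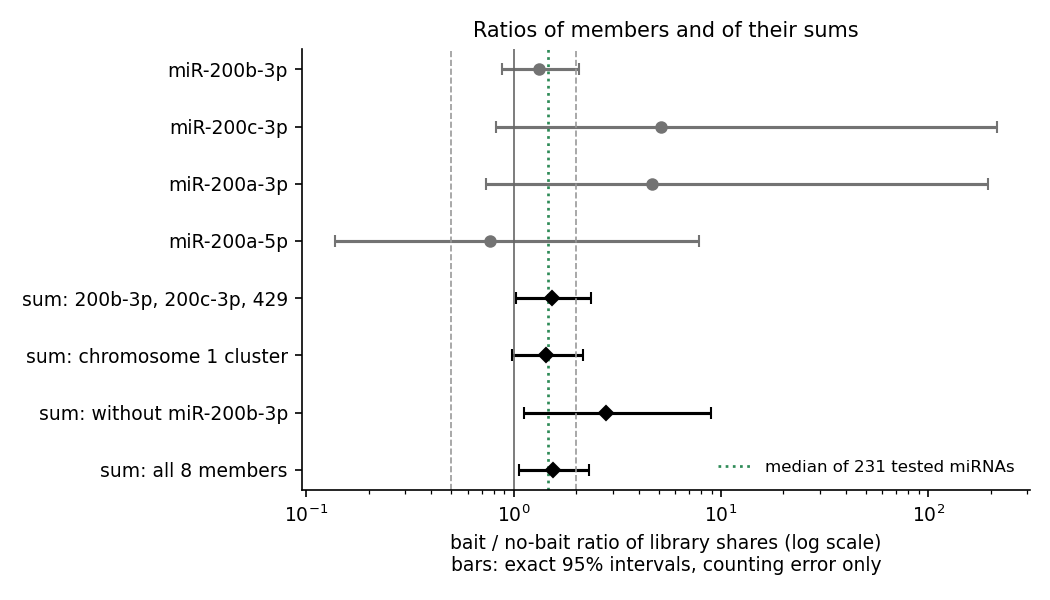
Bait over no-bait ratio of library shares for the members with a ratio (grey circles) and for sums of members (black diamonds), on a log axis with exact 95% intervals. Dashed lines mark 0.5 and 2, and the dotted line is the median of 231 tested miRNAs (1.46). The sum of all 8 members lies at 1.55 and the sum without miR-200b-3p at 2.78.

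**Figure D4:**
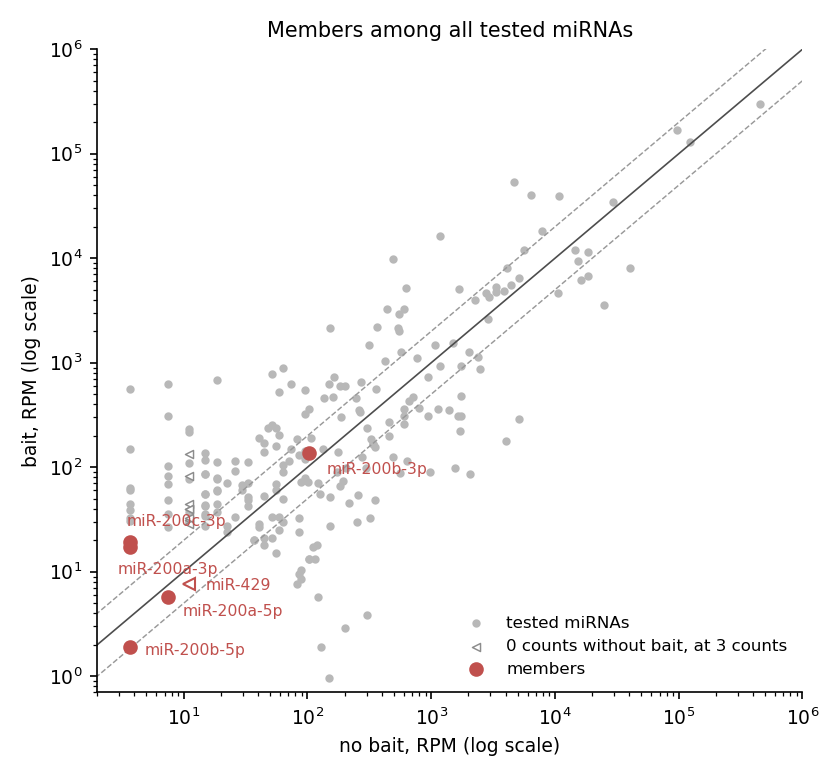
RPM with bait against RPM without, both on log axes, for the tested miRNAs (grey) and the members with at least 1 count (red); open triangles have 0 counts without bait and are drawn at 3 counts. The solid line is a ratio of 1 and the dashed lines ratios of 0.5 and 2. miR-200b-3p lies between the dashed lines within the main cloud, and the other members lie at the low end, where 0 to 2 counts set the no-bait value.

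The tested miRNAs nearest to miR-200b-3p in the plane of log2(RPM + 1) over the 2 libraries were miR-4326 (distance 0.13), miR-335-3p (0.23) and miR-589-5p (0.29). miR-4326 had 151 and 26 counts and a ratio of 1.50 (0.982 to 2.36). miR-335-3p had 125 and 26 counts and a ratio of 1.24 (0.807 to 1.97). With only 2 libraries, nearness means a similar level and ratio and nothing more.

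The annotated MACC1-AS1 transcript (ENSG00000228598.1, chromosome 7, 639 nt in 4 exons, GENCODE version 29) was searched on its sense strand for letters complementary to the member seeds. No full match to bases 2 to 8 was found for any of the 4 seeds. The motifs were CAGTATT for the miR-200b-3p group, CAGTGTT for miR-200a-3p and miR-141-3p, GTAAGAT for the 5p arms and ATGAAGG for miR-205-5p. These letters occur in 3.70%, 5.94%, 2.65% and 8.63% of 4158 annotated lncRNA transcripts of 576 to 702 nt. The shorter motif AGTATT, which pairs with bases 2 to 7 of miR-200b-3p, miR-200c-3p and miR-429, occurred at 2 places. The shorter motifs of the other 3 seeds occurred at 0 places: AGTGTT for miR-200a-3p and miR-141-3p, TAAGAT for the 5p arms and TGAAGG for miR-205-5p. These letters occur in 15.5%, 11.2% and 25.6% of the same transcripts.

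The matches are shown as 30-base windows of the transcript, with the 6 matching bases in capitals (GRCh38, plus strand).
bases 142 to 147, exon 2, chr7:20147451-20147480: attagctgaagaAGTATTaaggcaaggttg
bases 295 to 300, exon 3, chr7:20150501-20150530: aagatacaaaggAGTATTagatctgcattg

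Both are followed by A, so both also read AGTATTA, which pairs with bases 1 to 7 of these miRNAs and overlaps AGTATT. Of the 4158 transcripts of like length, 11.9% held AGTATT, 1.27% held it at least 2 times, 2.57% held AGTATTA, and 0.120% held AGTATTA at least 2 times. MACC1-AS1 is 64.8% A or T, against a median of 53.2% in these transcripts, and AGTATT is itself rich in A and T. The match is shared by miR-200b-3p, with a ratio of 1.32, and miR-200c-3p, with a ratio of 5.15 and an interval that holds 1.32. miR-200c-3p and miR-429 summed to 28 bait and 1 no-bait counts, and their ratio of 7.21 (1.19 to 295) lay past the higher rule. That sum was chosen after its values were seen and rests on 1 no-bait count, so it is given as a description. The isoform of the bait and its MS2 repeats were not analysed here.

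**Figure D5:**
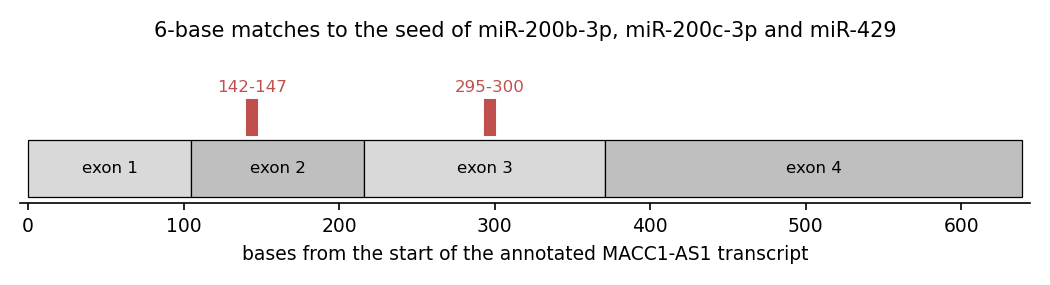
Map of the annotated MACC1-AS1 transcript, in bases from its start, with its 4 exons as grey boxes and the 6-base matches to the seed of miR-200b-3p, miR-200c-3p and miR-429 in red. The matches lie at bases 142 to 147 in exon 2 and 295 to 300 in exon 3.

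Other miRNAs linked to the epithelial and mesenchymal states place the family in the library. Of 15 names linked to the epithelial side, 10 were tested, of which 5 were higher with bait, 1 was lower and 4 passed neither rule, against 39.4% higher and 26.8% lower of all tested miRNAs. The 5 higher of 10 lie near that 39.4%. With DESeq2 size factors 7 of the 10 were higher, against 114 of all 231 tested miRNAs. The epithelial and mesenchymal lists were both chosen with earlier results of these data known. As a description only, the median log2 ratio of the 10 tested epithelial names was 1.73, against 0.55 over all tested miRNAs. The most abundant were miR-30a-5p at 40073 and 6392 RPM (ratio 6.27, 5.97 to 6.58), miR-30c-5p at 16305 and 1186 RPM (13.7, 12.3 to 15.4), miR-148a-3p (1.27, 1.20 to 1.34) and miR-182-5p (1.44, 1.34 to 1.55). With bait the level of miR-30a-5p was far above the 137.5 RPM of miR-200b-3p.

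The mesenchymal list held 14 names linked to the mesenchymal or invasive side, or high in basal breast lines. Of its 10 tested names 3 were higher with bait, 2 were lower and 5 passed neither rule, with a median log2 ratio of 0.41. These counts lie near the 39.4% higher and 26.8% lower of all tested miRNAs. The 14 names took 53.3% of the bait library and 60.1% of the no-bait library. They include the 6 basal markers above, which took 53.2% and 60.0%, so these are largely the same counts. miR-100-5p and miR-21-5p passed neither rule (ratios 0.655 and 1.72), miR-125b-5p was 11.4-fold higher (10.7 to 12.03) and miR-222-3p was 5.01-fold lower (4.87 to 5.15). miR-222-3p, typical of basal breast lines, had 58.4 times the counts of miR-200b-3p with bait and 387 times without.

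In the authors' deposited table no member had a p-value under 0.05, and the test behind it is not named. The authors' deposited table gives p-values of 0.0942 for miR-429, 0.144 for miR-200c-3p, 0.190 for miR-200a-3p and 0.464 for miR-200b-3p, and 1 for the other members. The log2 fold change of 9.58 for miR-429 in the authors' deposited table implies a no-bait value of 0.01 RPM in place of 0. It therefore follows from that substitution and from 8 bait counts.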

How the data were processed

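Counts of mature miRNAs were taken for 2 libraries of MDA231 lysate, 1 with bait and 1 without. The authors deposited a whole-number read count per mature miRNA name and, beside it, its RPM, which could be recomputed from the counts and their sum to within 0.00994 RPM. BWA is named, without a version, in the submitters' processing notes. No source used here gives the miRNA reference, trimming or multi-mapping rules. The authors also deposited a table with log2 fold changes and p-values, used here only to quote the members.

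Ratios used each library's total miRNA count and exact conditional binomial 95% intervals (scipy 1.17.1). The intervals were tested on simulated counts with the Poisson error that they assume, for miRNAs with at least 30 counts. Of the members only miR-200b-3p lies in that range, so the simulation does not cover the rarer members. A count of 0 was set against a floor of 3 counts, and no ratio is given where both libraries held at most 3 counts. Reads without molecular identifiers are not independent molecules, so intervals and floors cover counting error only.

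Libraries were also scaled by TMM (edgeR 4.0.16), by size factors (DESeq2 1.42.0), by totals without the 5 most abundant miRNAs and by the deposited RPM. Count minimums of 10 and 1 replaced 30, and subsets of members were summed. In place of the floor, 0.5 counts were added to a member's count in both libraries, also where neither count was 0. All 8 members were named, with the 4 most abundant of each context list and the 3 miRNAs nearest to miR-200b-3p. Marker miRNAs, and miRNAs compared in level, were named after their values were seen. The members and lists were chosen with earlier results of these data known.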

Additional observations from a re-analysis of the deposited data

How the results depend on the processing

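Another scaling multiplies every ratio by one factor: TMM by 1.11 (log2 0.15), DESeq2 size factors by 1.34 (0.42), and leaving the 5 most abundant miRNAs out of the totals by 0.915 (-0.13). DESeq2 size factors brought the sum of the 8 members past the higher rule at 2.07 and miR-200c-3p at 6.90. With the same factors 114 of the 231 tested miRNAs were higher, in place of 91. They left 1 lower miRNA in the mesenchymal list in place of 2. The sum without miR-200b-3p passed the rule at 2.78. Without a count filter 100 miRNAs were lower in place of 62, since more were tested. Matches to bases 2 to 7 of the miR-200b-3p seed gave 2 sites in MACC1-AS1 in place of 0, and matches to bases 1 to 7, added after the data were seen, also gave 2. Of the alternative values for these main results the other 54 kept their side of the rule, or a size within 1.5 times or within the interval. For miR-429 this says nothing of stability, since its interval has no upper bound: against the floor of 3 counts its value was 0.687, and with 0.5 counts added it was 4.38. Other values could hardly move. The deposited RPM rests on the same counts and totals, leaving out miR-205-5p removes 0 counts, and intervals from 1 no-bait count are very wide. miR-200a-5p counted as kept although it went from 0.773 to 1.04 with DESeq2 size factors. No paired analysis was possible because each group held 1 library, and no library could be left out. The no-bait depth limits the precision of every ratio here, since 5 members that were seen had 0 to 2 counts there.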
